A study of Mus musculus with 2 samples.

Results

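Oxidative phosphorylation passes electrons from NADH and succinate through 4 protein complexes of the inner mitochondrial membrane to oxygen, and complex V, the ATP synthase, uses the proton gradient they build to make ATP. Most subunits are encoded in the nucleus and imported, while a small core of complexes I, III, IV and V is encoded by mitochondrial DNA. Some complex IV subunits exist as a widely used form and as a form restricted to muscle, testis, lung or low oxygen. In bone marrow, maturing neutrophils are known for relying largely on glycolysis, and megakaryocytes for being rich in mitochondria that are passed on to platelets.

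The nuclear genes of the 5 complexes were taken by name. They are the protein-coding genes whose symbols start with Nduf (assembly factors named Ndufaf left out), Uqcr, Atp5, Cox4, Cox5, Cox6, Cox7 or Cox8, together with Cyc1, Sdha, Sdhb, Sdhc and Sdhd. The rule takes 87 genes of the annotation, of which 86 had a row, among 21461 nuclear protein-coding genes. Complex I had 38 members, complex II 4, complex III 9, complex IV 18 and complex V 17. One of a pair of gene IDs that share the name Atp5o was not analysed here. The rule uses names alone.

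The study sequenced total RNA, depleted of ribosomal RNA, from primary bone marrow cells labelled megakaryocyte of male C57BL/6J mice aged 5 to 6 weeks, in 2 libraries of 100 ng that the labels number as biological replicates 1 and 2. No treatment or genetic change is given, and there is 1 group, so no conditions can be compared. Both libraries name the same donor, so the spread between them may be partly technical. Fragment sizes are labelled as 221 to 1000 nucleotides (library 1) and 200 to 1000 (library 2). Summed expected counts (estimated reads per gene) were 42703213 and 50532821.

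The label was checked against markers. Of 10 megakaryocyte markers, 8 were under 1 TPM (a share of all transcripts, scaled by length) in both libraries, and their summed level was 9.30 and 10.9 TPM. The platelet glycoproteins Gp5 and Gp6 had 0 counts in both. Only the integrin genes Itga2b (3.26 and 4.89 TPM) and Itgb3 (5.92 and 5.66 TPM) passed that level, and they held most of the sum. The 8 neutrophil markers summed to 14393 and 13662 TPM, the 6 monocyte markers to 1739 and 2067, and the 8 erythroid markers to 114 and 54.7. Most megakaryocyte markers go against the label, so every level below is that of the libraries labelled megakaryocyte and not of a named cell type. In such bulk RNA, a lower level from fewer cells of a type and one from less RNA per cell cannot be told apart.

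The members were well above the typical gene. In both libraries, 78 of the 86 reached 1 TPM, 67 reached 10 TPM and 14 reached 100 TPM. The same levels were reached by 42.4%, 16.9% and 1.62% of all nuclear protein-coding genes. The median member was at 30.2 TPM in library 1 and 35.7 TPM in library 2, beside 7.85 and 8.12 TPM for the 9100 nuclear protein-coding genes at 1 TPM or more in both. Members made up 0.680% and 0.734% of the expected counts of nuclear protein-coding genes and 1.82% and 1.88% of their TPM. Members are short, and TPM is scaled by length while counts are not: their median effective length (the bases a fragment can start in) was 504 and 493 bases over the 78 members, against 2166 and 2179 over the 9100 genes.

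By complex, median levels were 28.1 and 34.2 TPM for complex I, 29.2 and 33.3 for complex II, 30.3 and 35.4 for complex III, 24.3 and 23.2 for complex IV and 52.7 and 57.6 for complex V, each in libraries 1 and 2. Complexes I, II and III therefore lay within a few TPM of each other in each library. Complex IV was the most divided: among its 12 members at 1 TPM or more in both libraries the median was 71.6 and 93.3 TPM, and the rest were close to 0, apart from Cox6a2 at 0.76 and 1.56 TPM. Without the members that have near-identical copies, described below, the median of complex IV was 6.03 TPM over both libraries in place of 23.8. It then fell on Cox6b2, because the members left out (Cox5b, Cox6c, Cox7a2l, Cox7b and Cox7c) were among the higher ones. Library 2 had the higher TPM for 64 of the 86 members. At 1 TPM or more in both libraries it had the higher TPM for 63 of 78 members, beside 5603 of the 9100 genes. Across the 78 members at 1 TPM or more, log2(TPM + 1) in the 2 libraries had a Pearson correlation of 0.984, the same as over the 9100 genes, and the median coefficient of variation was 11.8%, against 9.73% over the 9100.

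**Figure D1:**
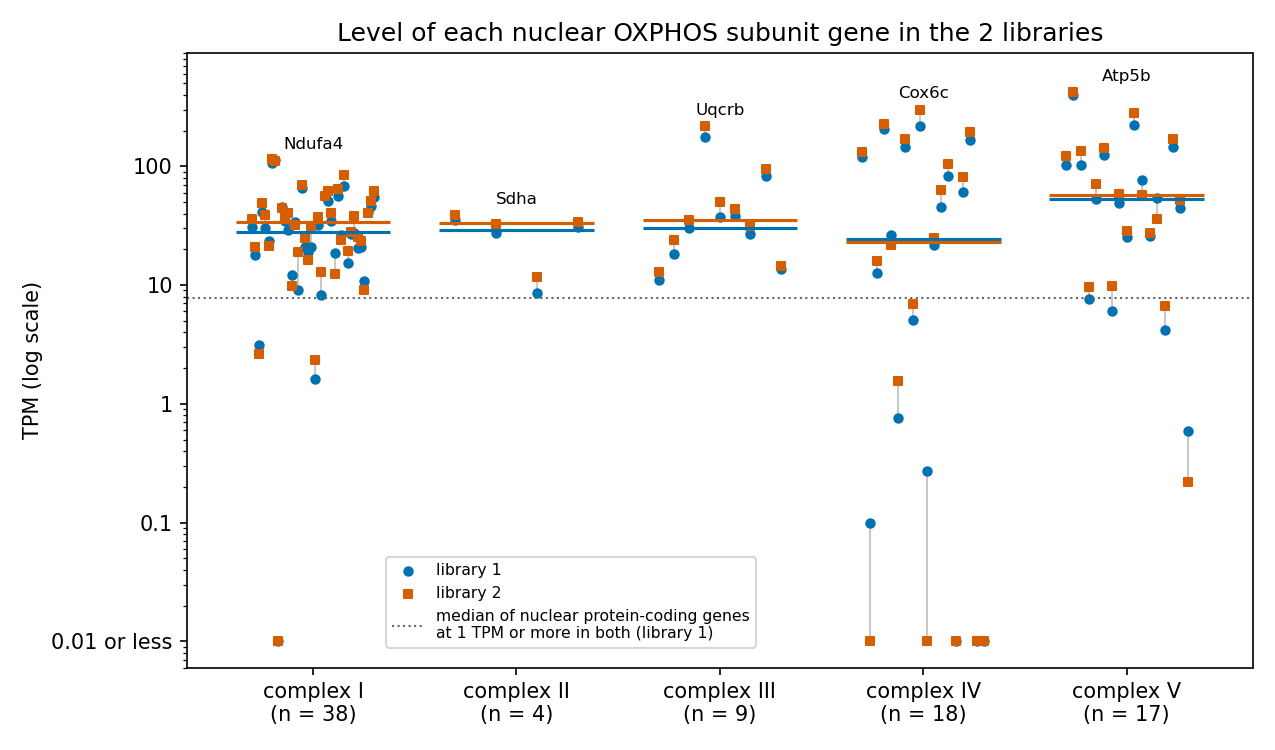
TPM of each of the 86 members in library 1 (circles) and library 2 (squares) by complex, on a log axis; short lines mark the median of each complex and library, and values at or under 0.01 TPM are drawn at 0.01. Complex V has the highest median (52.7 and 57.6 TPM), and complex IV splits into members well above 1 TPM and members at or near 0. Its tissue-restricted forms lie at or near 0 except Cox6b2 (5.11 and 6.94 TPM) and Cox6a2 (0.76 and 1.56 TPM).

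Complex I, the NADH dehydrogenase, has 7 nuclear core subunits, which carry the flavin and the iron-sulphur clusters along which electrons run. All 7 were detected, with a median of 26.6 and 23.9 TPM. Ndufv2 was at 46.6 and 51.0 TPM (48.8 ± 3.08, SD, n = 2) and Ndufv1, which binds NADH and the flavin, at 41.6 and 40.8. Next came the largest iron-sulphur subunit Ndufs1 at 26.6 and 23.9 TPM, Ndufs7 at 21.1 and 23.6, and Ndufs3 at 15.3 and 19.5. Ndufs8, which holds a pair of iron-sulphur clusters, was lowest at 10.9 and 9.08 TPM. Subunits that are thought to stand at 1 copy per complex thus spanned a wide range of RNA levels, and Ndufs8 was below the others named here in both libraries.

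The 31 accessory members of complex I had a median of 28.9 and 36.0 TPM. Ndufa4 (chromosome 6, 11900292 to 11907497) was highest at 112 and 110 TPM (111 ± 1.09), level with Ndufa3 at 106 and 116. Ndufa4 carries a complex I name but is now regarded as a subunit of complex IV. Its relative Ndufa4l2, induced under low oxygen, was at 0 counts throughout; a limit of 3 counts would still permit 0.0407 TPM in library 1 and 0.0363 in library 2. Ndufb10 (65.9 and 69.0 TPM), Ndufc2 (56.0 and 65.0), Ndufv3 (55.02 and 61.67) and Ndufb7 (56.3 and 56.3) came after the leading pair. At the low end were Ndufb4 (1.61 and 2.33 TPM), whose reads may lie at a copy described below, and Ndufa11 (3.15 and 2.64), a membrane-arm subunit. Ndufab1, the mitochondrial acyl carrier protein, differed most between libraries by its coefficient of variation (50.3%), at 9.01 and 19.0 TPM. Its estimated effective length also differed, at 617 and 405 bases. By scaled counts library 2 was 1.32-fold higher, and its coding transcripts were at 7.71 and 12.1 TPM.

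Complex II, succinate dehydrogenase, joins the citric acid cycle to the chain and has no mitochondrially encoded subunit. The flavoprotein Sdha was at 35.6 and 38.9 TPM (37.2 ± 2.33) and the iron-sulphur protein Sdhb at 27.4 and 32.9 (30.2 ± 3.92). Of the membrane anchors, Sdhd was at 30.9 and 33.7 TPM (32.3 ± 1.93) and Sdhc (chromosome 1, 171127165 to 171150603) at 8.51 and 11.8 (10.2 ± 2.33). Sdhc was below the other three in both libraries, with no overlap.

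Complex III, the cytochrome bc1 complex, had all 9 members at 10 TPM or more in both libraries. Its nuclear catalytic subunits were among the lower ones: Cyc1, cytochrome c1 (chromosome 15, 76343523 to 76346260), was at 11.01 and 12.93 TPM (12.0 ± 1.36) and the Rieske iron-sulphur protein Uqcrfs1 at 26.8 and 31.3 (29.0 ± 3.20). The large core proteins Uqcrc1 and Uqcrc2 were at 37.8 and 49.7 TPM and at 38.3 and 43.3. Of the small subunits, Uqcrb (chromosome 13, 66900617 to 66905378) was highest at 177 and 218 TPM (198 ± 29.0) and Uqcrh, the hinge protein, second at 83.0 and 95.4. Uqcrq, at 13.6 and 14.6 TPM, was lowest of the 5. The level of Uqcrb exceeded that of every other member of the complex in both libraries.

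Complex IV, cytochrome c oxidase, takes its catalytic core from mitochondrial DNA, so all its nuclear members are accessory. Cox6c (chromosome 15, 35925886 to 35938246) was highest at 219 and 301 TPM (260.0 ± 57.6). Cox5b was at 208 and 226 TPM, Cox8a at 166 and 194, Cox6b1 at 147 and 170 and Cox4i1 at 119 and 132. Cox5a, which binds next to Cox4i1, was at 12.8 and 15.8 TPM, lower than each of these in both libraries. Cox7a2l, named as a Cox7a relative and known for holding complexes III and IV together in supercomplexes, was at 45.5 and 62.9 TPM.

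The paralogous forms sorted sharply. In 7 of 8 sets, the widely used form held 90% or more of the set's TPM in both libraries. The remaining set holds Atp5g1, Atp5g2 and Atp5g3 of complex V, described below, whose ring product is the same. Cox8b (heart and muscle), Cox8c (testis) and Cox7b2 (testis) had 0 counts in both, which allows at most 0.208, 0.118 and 0.0939 TPM in library 1. Cox4i2, the lung form, had 5 and 0 counts, and Cox7a1, the heart and muscle form, 4 and 0. The muscle form Cox6a2 (chromosome 7, 128205435 to 128206387) was low but present, with 33 and 75 counts, or 0.76 and 1.56 TPM. It held 2.77% of the Cox6a set in library 1 and 6.75% in library 2, with Cox6a1 at 26.7 and 21.6 TPM. Cox6b2, the testis form, was the highest of the restricted forms at 134 and 218 counts, or 5.11 and 6.94 TPM, which was 3.36% and 3.93% of the Cox6b set.

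**Figure D2:**
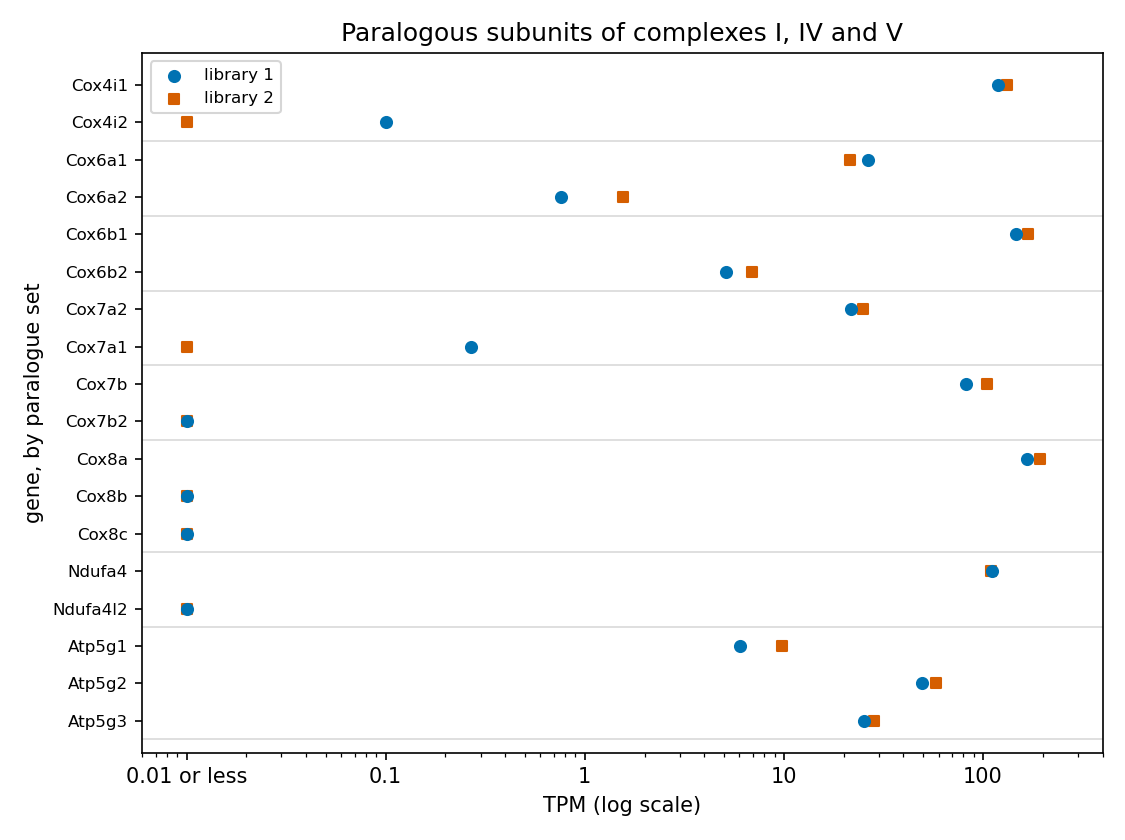
TPM of each gene in the 8 paralogue sets in library 1 (circles) and library 2 (squares), on a log axis with values at or under 0.01 TPM drawn at 0.01. Cox6a2 and Cox6b2 are the only restricted forms above 0.5 TPM in both libraries, and Cox4i2 and Cox7a1 were detected in library 1 alone. The 3 Atp5g genes, which share a product, all lie above 0.5 TPM.

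Complex V makes ATP in its F1 head, where the central stalk is turned by a ring of c subunits in the membrane. The F1 head and central stalk had a median of 102 and 123 TPM over 5 members. Atp5b, the catalytic beta subunit (chromosome 10, 128083273 to 128090391), had the highest gene level of all 86 members, at 396 and 419 TPM (407 ± 16.2). The alpha subunit Atp5a1 was at 102 and 123 TPM and the gamma subunit Atp5c1 at 102 and 135. The small epsilon subunit Atp5e was at 52.7 and 70.3 TPM, and the delta subunit Atp5d, at 7.69 and 9.54, was the lowest of the head in both libraries.

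In the peripheral stalk, which holds the head still, Atp5h (subunit d) was at 222 and 283 TPM, Atp5f1 (subunit b) at 124 and 143, Atp5j (factor 6) at 77.3 and 57.6 and Atp5o at 44.3 and 51.6. Of the membrane subunits, Atp5mpl was at 145 and 171 TPM and Atp5k (subunit e) at 53.8 and 36.3. Atp5j2 (subunit f) was at 26.1 and 27.6 TPM and Atp5l (subunit g) at 4.18 and 6.61, again a member with a copy. Atp5s, a coupling-factor-like gene that is not a stable part of the enzyme, was lowest at 74 and 32 counts, or 0.59 and 0.22 TPM.

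The c ring is made from 3 genes, Atp5g1, Atp5g2 and Atp5g3, whose proteins differ in the import signal that is cut off. Their last 225 coding bases before the stop codon, which hold the part that stays in the ring, are shown because they let the RNAs be told apart although the product is the same; read 5′ to 3′ on the coding strand, with capitals at bases that differ from Atp5g2.
Atp5g1: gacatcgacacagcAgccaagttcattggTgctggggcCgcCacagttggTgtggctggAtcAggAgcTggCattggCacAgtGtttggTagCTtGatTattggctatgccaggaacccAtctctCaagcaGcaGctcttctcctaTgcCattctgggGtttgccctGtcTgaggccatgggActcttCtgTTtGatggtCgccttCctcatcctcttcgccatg
Atp5g2: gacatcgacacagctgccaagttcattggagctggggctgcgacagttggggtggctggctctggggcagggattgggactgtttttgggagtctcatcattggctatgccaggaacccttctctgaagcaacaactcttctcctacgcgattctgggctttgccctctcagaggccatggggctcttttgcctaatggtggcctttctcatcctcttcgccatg
Atp5g3: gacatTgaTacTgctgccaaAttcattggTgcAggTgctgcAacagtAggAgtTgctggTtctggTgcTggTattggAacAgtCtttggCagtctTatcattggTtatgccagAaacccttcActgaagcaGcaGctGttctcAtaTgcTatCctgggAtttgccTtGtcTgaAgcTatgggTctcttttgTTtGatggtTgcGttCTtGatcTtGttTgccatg
Atp5g1 differed from Atp5g2 at 34 of the 225 bases (84.9% identity), Atp5g3 from Atp5g2 at 48 (78.7%) and Atp5g1 from Atp5g3 at 45. None of these changes alters the encoded residues: 0 of 75 differed in each pair. Atp5g2 (chromosome 15, 102662864 to 102672352) held 61.2% and 60.3% of the summed TPM of the 3 genes, Atp5g3 31.3% and 29.5%, and Atp5g1 7.47% and 10.2%. The order was the same in both libraries, at 49.4 and 58.2 TPM for Atp5g2, 25.3 and 28.5 for Atp5g3 and 6.03 and 9.83 for Atp5g1. Gm10175, a pseudogene with the whole coding sequence of Atp5g2, had 49.6 and 270.5 counts beside 2512 and 3278 for Atp5g2.

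A gene's TPM sums all its annotated transcripts, coding or not. Over all members, 84.9% and 87.3% of TPM lay in protein-coding transcripts, beside 88.6% and 89.5% over all nuclear protein-coding genes. At 56 of the 78 members at 1 TPM or more, coding transcripts held 90% or more of the level in both libraries. At 4 they held under 50% in both, beside 7.35% of the 9100 genes; Atp5b, Ndufa3 and Ndufa5 were among them. The transcript with the highest TPM was not coding for 6 members in library 1 and 5 in library 2. Cox7c was among those in both libraries, and Atp5j was one in library 1 alone.

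Atp5b is the clearest case. Its coding transcript Atp5b-201, of 1693 and 1680 effective bases, held 15885 of 22785 expected counts in library 1 and 19923 of 27564 in library 2. In TPM this was 93.7 and 104, only 23.7% and 24.8% of the gene. The remainder lay mostly in Atp5b-206 and Atp5b-207, processed transcripts of 256 and 127 effective bases in library 1, at 209 and 85.5 TPM there and 207 and 101 TPM in library 2. By coding transcripts alone Atp5b was therefore below Atp5a1 in each library, at 102 and 122 TPM for the coding transcripts of Atp5a1. In the same way, Ndufa3 was at 106 and 116 TPM as a gene and at 46.1 and 50.8 by its coding transcripts, and Ndufa5 at 45.5 and 44.2 and at 7.68 and 15.4. How far reads of the coding transcript were assigned to the short ones was not tested.

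**Figure D3:**
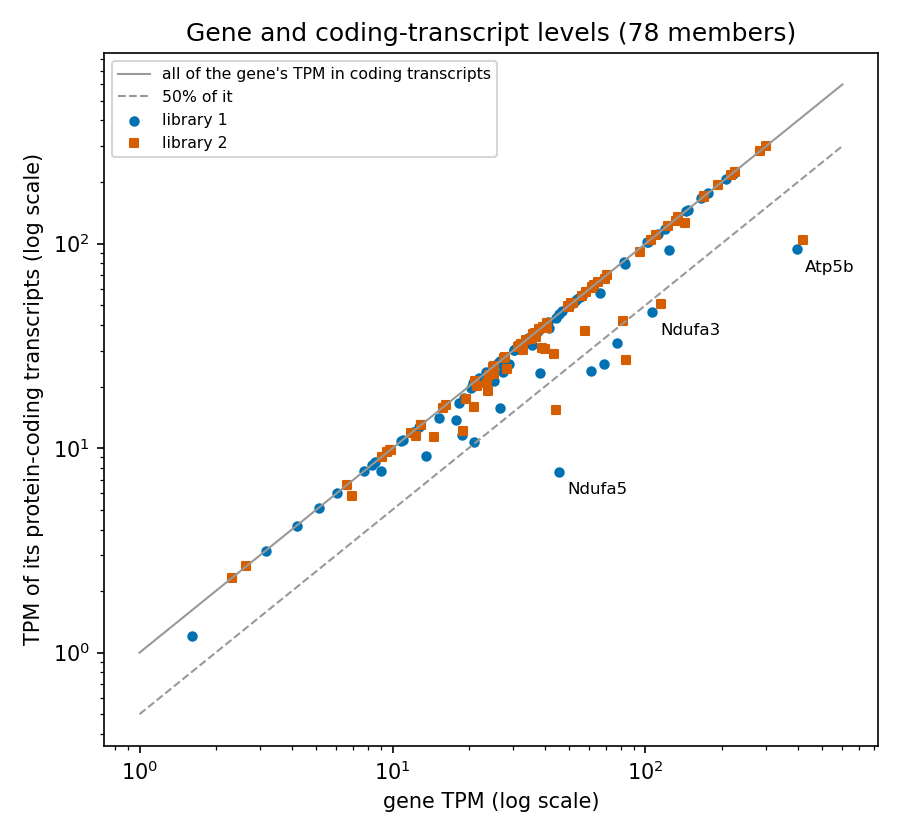
Gene TPM (x axis) against the TPM of the gene's protein-coding transcripts (y axis), both on log axes, for the 78 members at 1 TPM or more in both libraries; the solid line marks equality and the dashed line 50%. Most points lie on the solid line, and Atp5b, Ndufa3 and Ndufa5 lie under the dashed line in both libraries.

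Small, strongly transcribed genes often leave processed pseudogenes, intronless copies of their mRNA elsewhere in the genome, and reads cannot always be told apart between the copy and its parent. A copy was defined as another gene whose transcript matches 80% or more of a member's coding sequence at 95% identity or more. By this rule 22 of the 86 members had 41 copies, 37 of them processed pseudogenes, and 36 had a row. These received 4201 counts in library 1 and 4860 in library 2, small beside the 254194 and 328930 of the members.

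For a pair of members the counts at copies outnumbered their own. The whole coding sequence of Ndufb4, a complex I membrane subunit (chromosome 16, 37647170 to 37654453), recurs without a change in Ndufb4c (chromosome 15, 73809507 to 73809896, minus strand, mm10). That of Atp5l (chromosome 9, 44912557 to 44920742) recurs in Gm10221 (chromosome 5, 24581554 to 24581862, minus strand). The first 120 coding bases, 5′ to 3′, are given as examples of sequence that parent and copy share; no capitals are used because no base differs.
Ndufb4 and Ndufb4c: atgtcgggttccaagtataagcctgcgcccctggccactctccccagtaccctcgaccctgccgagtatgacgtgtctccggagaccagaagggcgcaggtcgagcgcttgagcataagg
Atp5l and Gm10221: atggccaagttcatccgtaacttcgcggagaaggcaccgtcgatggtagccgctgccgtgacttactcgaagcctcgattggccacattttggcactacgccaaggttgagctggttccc
Ndufb4 had 100 and 196 counts and Ndufb4c 1481 and 1619, so that 93.7% and 89.2% of the pair's counts lay at the copy. Atp5l had 121 and 208 counts and its copies 1406 and 1821, or 92.1% and 89.8%, nearly all at Gm10221. Adding the TPM of the copies gave 88.5 and 92.0 TPM for Ndufb4, beside 1.61 and 2.33 without them. For Atp5l it gave 74.1 and 91.2, beside 4.18 and 6.61. These sums scale the copies' counts by shorter lengths, so they exceed what the same counts would give at the parent. Effective lengths were 170.2 and 158 bases for Ndufb4c against 620 and 735 for Ndufb4. They were 201 and 189 for Gm10221 against 288 and 276 for Atp5l. With most counts at the copies, the low levels of both parents are uncertain, and neither gene can be called weakly expressed from these tables.

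Copies mattered less for the other members. Counts at copies passed 10% of the sum in at least 1 library for Ndufa12 (10.6% and 7.24%), Ndufab1 (17.9% and 2.07%) and Cox7c (14.1% and 8.40%). Gm12338, a copy of Cox7c, differed between the scales: its 199 and 177 counts, spread on 17.6 and 13.2 effective bases, amounted to 113 and 118 TPM, above the 61.1 and 81.5 TPM of Cox7c. Cox6c and Atp5k had copies with a row, and these had 0 counts in both libraries.

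**Figure D4:**
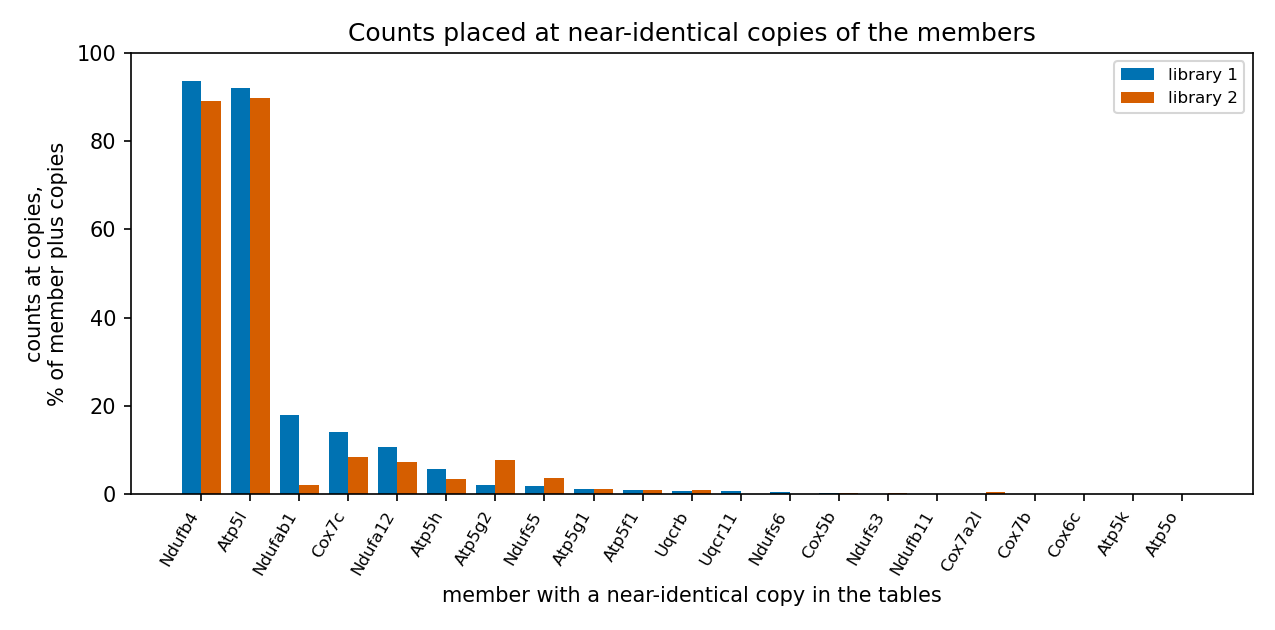
Counts at near-identical copies as a percent of the counts of member plus copies, for each of the 21 members with a copy that has a row, in library 1 and library 2. Ndufb4 and Atp5l stand near 90% in both libraries and every other member is under 20%.

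Library 1 was next compared with library 2, gene by gene, by an exact two-sided binomial test on rounded counts with Benjamini-Hochberg adjustment over 12081 genes. With 1 library a side this test holds counting error only and compares 2 libraries, not conditions. Of 80 members tested, 61 differed at an adjusted p of 0.05 or less, beside 65.6% of all genes tested. Higher in library 2 were 47 (33.1% of all genes tested) and higher in library 1 were 14 (32.6%). The median log2 ratio of library 2 over library 1 was 0.14 for the members and 0.00 for all genes tested. It was positive in each complex: 0.09 in complex I, 0.12 in II, 0.15 in III, 0.21 in IV and 0.18 in V. When an edgeR exact test assumed a biological coefficient of variation of 0.1 in place of counting error alone, 3 members were called, Atp5g1, Atp5k and Atp5s, beside 12.9% of all genes.

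Over all genes the ratio varied with length, and over the members with copies. Among all genes tested, those of 300 to 1000 effective bases had a median log2 ratio of 0.11 and 44.2% were higher in library 2, while those of 1000 bases or more had -0.01 and 30.9%. In the same classes, 47 members had a median of 0.14 with 29 higher in library 2, and 16 had 0.14 with 9 higher. Below 300 bases, 17 members had 0.12, and 165 genes in all had 0.15. Without the members that have copies, the median fell to 0.09 and 29 of 58 were higher in library 2 and 13 in library 1. Neutrophil markers (7 of 8) and erythroid markers (7 of 8) were called higher in library 1, and monocyte markers (5 of 6) higher in library 2. These counts, and those without copies, stand beside 33.1% of all genes tested higher in library 2 and 32.6% in library 1. The calls include small ratios, such as -0.04 for S100a8. Median log2 ratios were -0.28 for the neutrophil, -1.15 for the erythroid and 0.15 for the monocyte markers. The part of length, copies and cell mixture in the members' ratio was not tested.

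Few members moved far, as among all genes at 1 TPM or more in both libraries. Higher in library 2 by 1.5-fold or more were 3 (7.40% of all genes tested): Cox6a2, with a log2 ratio of 0.93 (95% interval 0.33 to 1.58), Ndufb4 at 0.72 (0.37 to 1.09) and Atp5g1 at 0.69 (0.49 to 0.89). Higher in library 1 by as much were 2 (9.06%): Atp5s at -1.44 (-2.10 to -0.84) and Atp5k at -0.75 (-0.91 to -0.60). Cox6a2 and Atp5s rest on at most 75 counts in a library, and Ndufb4 on a gene with a copy. Atp5k had 827 and 583 counts, with its one copy at 0, and the binomial test gave an adjusted p of 4e-21. Atp5g1 had 319 and 611 counts and an adjusted p of 9.4e-12. After these, among members with a mean count of 100 or more, Ndufb6 (0.54), Atp5l (0.53) and Ndufb3 (0.51) lay highest. Cox6a1 (-0.41), Ndufa8 (-0.39), Ndufs8 (-0.34) and Atp5j (-0.34) lay lowest.

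Some parts of a complex were split. In complex V, all 5 members of the F1 head were called higher in library 2, from 0.03 for Atp5b to 0.32 for Atp5c1. Atp5j of the stalk and Atp5k of the membrane part were called higher in library 1. Over all genes tested, the shares were 33.1% higher in library 2 and 32.6% in library 1. The call for Atp5j covers all its transcripts, of which the retained-intron transcript Atp5j-208 had 1271 and 582 counts. By coding transcripts alone, Atp5j was at 32.7 and 37.2 TPM. TPM is a share of all transcripts and is not scaled as the counts behind the call were. These levels therefore give no direction to set against the call, and their difference was not tested. In complex II, Sdhc was called higher in library 2 at 0.39 and Sdha higher in library 1 at -0.09. In the Cox6a set, Cox6a1 was called higher in library 1 and Cox6a2 in library 2, so the 2 forms went opposite ways, on 33 and 75 counts of the rarer one. Complex III had 6 members called higher in library 2 and 0 called higher in library 1, beside the same shares of all genes. The binomial test left 3 of its members uncalled.

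**Figure D5:**
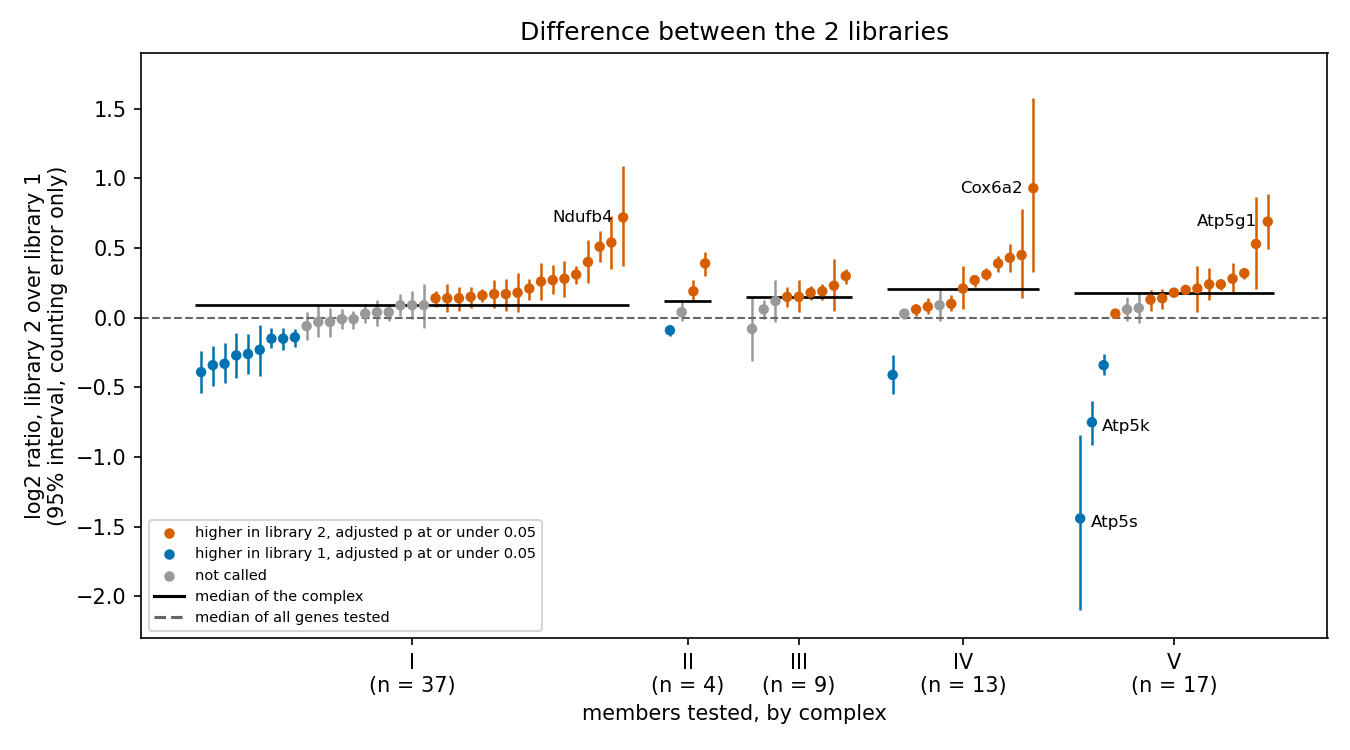
Log2 ratio of library 2 over library 1 for each of the 80 members tested, by complex and sorted, with 95% binomial intervals that cover counting error only; colour marks the call, black lines the median of each complex and the dashed line the median of all genes tested. Most members lie between -0.5 and 0.5, and the 5 members past 1.5-fold are named.

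Lists of genes that build or feed the complexes had lower medians than the subunits. Assembly factors, which insert cofactors and join modules without staying in the enzyme, had medians of 3.24 and 3.22 TPM for complex I (15 genes), 1.28 and 1.48 for II (4), 8.04 and 6.81 for III (6), 3.82 and 4.23 for IV (21) and 5.38 and 6.59 for V (4). None of the 15 for complex I reached 10 TPM in both libraries; Foxred1 was highest by its mean at 6.61 and 6.98, although Ndufaf7, at 5.08 and 7.68, was above it in library 2. Cox17, the copper chaperone of complex IV, was the highest assembly factor at 52.2 and 73.5 TPM, with Cox20 at 34.0 and 43.4, Uqcc2 of complex III at 22.0 and 30.3 and Cox16 at 22.5 and 26.9. Pet117 had 0 counts in both, and Sdhaf3 was at 0.41 and 0.31 TPM. Of the 15 complex I factors tested, 6 were called higher in library 2 and 3 higher in library 1, beside 33.1% and 32.6% of all genes tested, and of 20 complex IV factors tested 11 and 5. The counts were 0 and 1 of 4 for complex II, 2 and 2 of 6 for III and 2 and 1 of 4 for V.

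Cycs, the somatic cytochrome c that links complexes III and IV, was at 22.9 and 28.7 TPM, and its testis form Cyct had 0 counts in both. Etfb, of the flavoprotein that brings electrons from fatty acid oxidation, was at 44.6 and 50.9 TPM and its partner Etfa at 7.81 and 10.4. Of 8 carriers and feeding enzymes tested, library 2 had the called higher level for 5 and library 1 for 2, beside the same 33.1% and 32.6%. The 13 citric acid cycle genes had a median of 22.4 and 23.5 TPM, led by Idh3g (38.2 and 47.3), Mdh2 (29.7 and 28.8), Dlst (26.8 and 30.3) and Sucla2 (26.99 and 28.94), with 7 of 13 called higher in library 2 and 3 in library 1, beside the same shares of all genes.

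Of 13 regulators of these genes and of mitochondrial DNA, the highest were Gabpa, an ETS-family factor, at 18.8 and 22.1 TPM, Nrf1, nuclear respiratory factor 1, at 21.1 and 19.3, Yy1 at 20.1 and 17.9, and Tfam, which packs mitochondrial DNA, at 13.9 and 11.7. The coactivators of mitochondrial growth Ppargc1a (9 and 0 counts) and Ppargc1b (0.31 and 0.16 TPM) were under 1 TPM in both libraries. Of the 12 tested in this list, 2 were called higher in library 2 and 5 in library 1, again beside 33.1% and 32.6%.

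Promoter sequences of the members were searched for the motifs of these factors, because Nrf1, Gabpa and Yy1 were all detected. In RefSeq windows of 300 bases (250 before and 50 after the start site, build GRCm38.p6), 67 of 86 members matched with 72 windows. The motifs, searched on both strands, were GCGCATGCG for NRF1, CCGGAAG for ETS factors, AAGATGGC for YY1 and GGGCGG for SP1. The NRF1 motif overlaps its own reverse complement where it is followed by C. One window is shown for each complex, 60 bases 5′ to 3′ on the gene's own strand, from the member of highest TPM with an NRF1 match before the start site or, for complexes II and III, an ETS match; capitals mark those matches.
Ndufa8, complex I, chr2:36049339-36049398, minus strand: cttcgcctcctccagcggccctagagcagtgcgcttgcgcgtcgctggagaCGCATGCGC
Sdhd, complex II, chr9:50603861-50603920, minus strand: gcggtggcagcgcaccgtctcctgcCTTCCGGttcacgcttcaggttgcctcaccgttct
Uqcrh, complex III, chr4:116075071-116075130, minus strand: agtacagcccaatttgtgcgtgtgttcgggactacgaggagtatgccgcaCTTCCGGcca
Cox6a1, complex IV, chr5:115349086-115349145, minus strand: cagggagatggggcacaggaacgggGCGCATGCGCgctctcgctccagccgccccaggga
Atp5g2, complex V, chr15:102671055-102671114, minus strand: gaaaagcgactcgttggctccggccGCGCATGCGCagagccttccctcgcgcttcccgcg
The NRF1 motif was in 8 of 72 member windows (11.1%), beside 2.35% of 21262 windows of protein-coding genes and 1.75% of all 32851 windows. The ETS motif was in 16 (22.2%), beside 11.6% and 8.86%, and the YY1 motif in 9 (12.5%), beside 3.05% and 2.75%. The SP1 motif was in 28 (38.9%), beside 46.2% and 35.7%. Genes with NRF1 matches were Ndufa8, Ndufa11, Uqcr11, Uqcrc1, Cox6a1, Atp5g2, Atp5k and Atp5l, and 4 of them (Uqcr11, Cox6a1, Atp5k and Atp5l) also held the ETS motif. YY1 matches lay in 7 complex I genes and in Atp5j and Atp5j2 of complex V, with none in complexes II, III and IV. Of 67 members, 39 held none of the NRF1, ETS and YY1 motifs. A match in letters is a description of the window and does not show that a factor binds there.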

How the data were processed

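Total RNA of 2 mouse libraries, replicates 1 and 2 of 1 group per the labels, was analysed from gene and transcript tables. Reads were mapped to mm10 with GENCODE M4, per a deposited note on each library. Aligner and quantifier: not given in the sources used here. Deposited expected counts are estimated reads, not whole and not normalized. The deposited TPM (and posterior mean TPM) is a share of a fixed total over all rows. The deposited bounds of an interval for TPM are signal values of unstated level and served only to check precision. Deposited percent values (share of gene TPM per transcript), and the deposited effective length, another kind of value, were used as they stand. Symbols and transcript types came from GENCODE M21 by gene ID (42462 of 43346 mouse IDs matched; same build).

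Counts were rounded and scaled by TMM (edgeR 4.0.16). Genes averaging 10 counts or more were compared by a two-sided exact binomial test (SciPy 1.17.1) with Benjamini-Hochberg adjustment at 0.05. The test was checked on simulated counts with counting error only, as it assumes, so the check does not bear on wider variation. Calls past 1.5-fold were counted separately, and log2 ratios used 0.5 added counts. The 95% intervals (Clopper-Pearson) and the limit of 3 counts for a gene at 0 hold counting error alone: without molecular identifiers, reads are not independent molecules. Copies were found with BLAST+ 2.17.0 (blastn) against all M21 transcripts.

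All members could be named, except some that are not reported here; in full, the highest and lowest of each complex, paralogues, core subunits and the 5 largest log2 ratios each way, and of other lists the 4 highest and those under 1 TPM. Members and lists were chosen with earlier results of these data known. The split by effective length was chosen after seeing the data. Alternatives covered scaling, filters, TPM column, coding transcripts, copies, identity and each library left out. One complex I assembly gene had no row and was not analysed here.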

Additional observations from a re-analysis of the deposited data

How the results depend on the processing

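The direction of the median log2 ratio held under every alternative run, from 0.06 (ratio of TPM rescaled over nuclear protein-coding genes, where all genes had -0.09) to 0.14. The count of members that differed stayed between 42 and 62 under other scalings, count filters and the removal of members with copies, and was 3 with edgeR's exact test at an assumed coefficient of variation of 0.1; the cause is the wider error it assumes. The median TPM of the members was 33.0 over both libraries and lay between 30.2 and 35.7 with either library left out. It was 129.5 when TPM was rescaled to nuclear protein-coding genes, 28.8 by coding transcripts alone and 26.7 as a back-transformed mean of log2(TPM + 1). Members at 10 TPM or more numbered 67, and between 65 and 76 under other scalings, TPM columns, coding transcripts or a library left out; 75 reached 5 TPM and 59 reached 20 TPM. Members with copies numbered 22 at 95% identity, 35 at 90% and 14 at 98%, by construction of the threshold. Complex IV had a median of 23.8 TPM, of 71.3 without members under 1 TPM in both libraries and of 6.03 without members that have copies. The share in coding transcripts lay between 84.9% and 87.3% with either library left out, and all 7 paralogue sets led by a widely used form kept that lead in all alternatives. No paired analysis was possible because there is only 1 group. With 1 library a side, the calls hold counting error only.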

Other observations

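The 13 subunits encoded by mitochondrial DNA had summed levels of 9652 and 8379 TPM in libraries 1 and 2, above the 4366 and 5027 TPM of the 86 nuclear members. The sum was lower in library 2 for the mitochondrial genes and higher for the nuclear ones, and the difference was not tested. Of the mitochondrial sums, mt-Atp8 alone made up 4583 and 3778 TPM, on 10623 and 7650 counts. Both the sums and their comparison with the nuclear members therefore depend largely on that gene. The 13 mitochondrial genes were uneven among themselves. The complex IV core subunit mt-Co1 was at 3023 and 3141 TPM, while its partners mt-Co2 and mt-Co3 were at 35.9 and 25.1 TPM and at 143 and 263 TPM. The genes mt-Atp8 and mt-Atp6, which overlap and share a transcript, were at 4583 and 3778 TPM and at 4.98 and 23.9 TPM, and mt-Nd4l, which overlaps mt-Nd4, had 0 and 32 counts. Reads in the bases that such genes share cannot be told apart by these tables. Whether overlap underlies the uneven values was not tested, and copies of the mitochondrial genes were not searched for. Single values of these genes, and the sums that hold them, are therefore uncertain.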
